A study of Mus musculus with 8 samples.

Results

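The genes described here are 10 immediate early and heat shock genes: Fos, Fosb, Jun, Junb, Egr1, Atf3, Ier2, Dusp1, Hspa1a and Hspa1b. They were taken by name from the gene column of 8 mouse arrays, as probes that are not controls and whose name equals one of the 10. Of the 10 names, 9 had a probe, with 1 probe each, so 9 of 55663 probes belong to them. No probe is named Hspa1b, but the probe named Hspa1a is listed for transcripts of both genes and therefore reads the pair together.

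Immediate early genes are transcribed within minutes of a signal and need no new protein for it. Growth factors acting through ERK kinases switch them on during development, and so do tissue dissociation, warming and sorting, which is why they also serve as a gauge of how cells were handled. Inducible heat shock genes answer to unfolded protein and heat through heat shock factors. In the nephric duct, an epithelial tube that later sends out the ureteric bud, the receptor tyrosine kinase Ret is a known source of ERK signalling.

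All embryos were of the ICR strain and carried a green fluorescent reporter, and cells were isolated by flow cytometry. Of the 5 groups, 4 came from Hoxb7-GFP embryos, whose reporter is driven by the Hoxb7 promoter and marks the duct. These were duct precursors from E8.75 embryos (1 array, undivided), the E9.5 duct (2 arrays, a rostral and a caudal part), the E10.5 duct (2 arrays, rostral and caudal) and the E11.5 ureteric bud (1 array). The sample titles state a selection against Flk1 (Kdr), a receptor of endothelial cells, for the duct from E9.5 on, and not for E8.75. The last group was Wt1-GFP cells of E9.5 (2 arrays, rostral and caudal part of the embryo), for which no such selection is stated. No group was treated, and the samples have no undissociated or unsorted counterpart here. Whether embryos were pooled, or came from different animals for each array, is not stated in the labels. No group holds repeats of the same part. The p-values therefore rest only on how unlike the rostral-caudal differences of the divided groups were. That spread mixes technical variation with differences between the groups.

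A level is the log2 ratio of a probe's signal to the 75th percentile signal of its array, so 0 is that percentile. Levels of members were compared between arrays for 1 probe. Marker lists were averaged or summed over probes on each array, and the bound for Hspa1a used the level of another probe. On each array 60.6% to 69.2% of probes were well above background, no array had a saturated probe (0 of them), and r between arrays was 0.923 to 0.964. All 8 arrays lay on 1 slide with 1 scan time, 4 in each of 2 slide rows. The first row held E8.75, both E9.5 duct arrays and rostral E10.5, and the second held caudal E10.5, E11.5 and both Wt1-GFP arrays. Both E9.5 pairs thus lay within a row, while rostral and caudal at E10.5 cannot be told apart from the slide row. In sorted populations measured in bulk, fewer cells of a type and less RNA per cell cannot be told apart.

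The sorts matched their labels by defining markers, with an endothelial difference at E8.75. The mean level of 9 nephric duct markers (Pax2, Lhx1, Gata3, Ret and others) was 1.54 to 2.51 on the 6 duct arrays and -1.13 and -1.22 on the Wt1-GFP arrays. That of 7 markers of Wt1-positive mesoderm and stroma was 3.07 and 3.00 on the Wt1-GFP arrays and -4.10 to -0.30 on the duct arrays. The 13 endothelial markers had a mean level of 1.31 at E8.75 and of -3.56 to -1.41 on the other 7 arrays. The 6 blood markers measured ran from -4.14 (caudal E10.5) to -0.56 (rostral E9.5 duct), the 7 macrophage markers from -3.31 to -1.93, and the 6 markers of neurons and neural crest from -2.08 to 1.86 (rostral E9.5 duct).

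**Figure D1:**
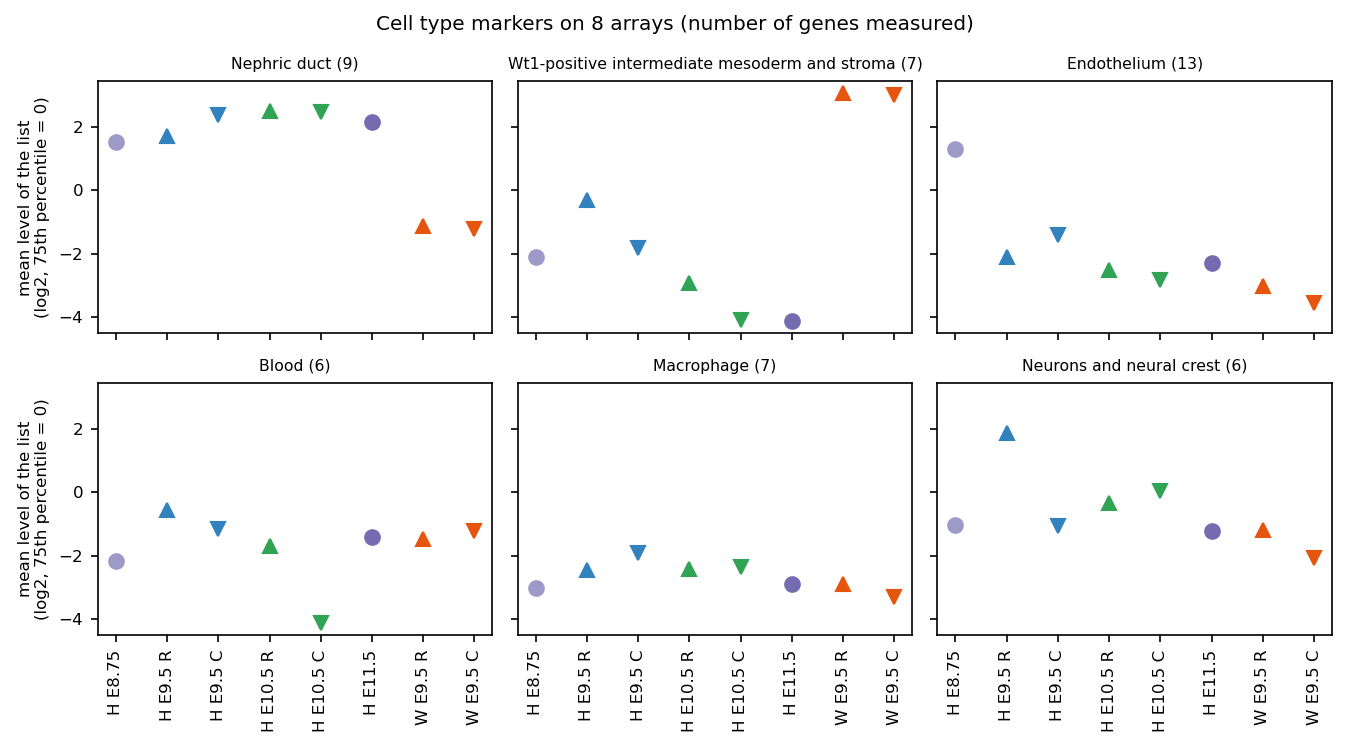
Mean level (log2, array 75th percentile at 0) of 6 marker lists on each of 8 arrays, with the number of genes measured in brackets; triangles up are rostral, triangles down caudal and circles undivided samples. Endothelial markers stand highest at E8.75 (1.31), and blood markers stand lowest on the caudal E10.5 array (-4.14).

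The Hspa1a probe and the promoters of 4 members are shown because they bear on what the array can separate and on the genes that varied together. Sequences run 5′ to 3′. The probe is given as listed on the array (mm9, minus strand, chr17:35107117-35107176). Of its 3 forward reading frames 2 hold no stop codon, and 0 other probes of the array share a run of 20 bases with it. The closest probe of another heat shock gene, Hspa1l, matched it at 42 of 60 bases.
Hspa1a probe: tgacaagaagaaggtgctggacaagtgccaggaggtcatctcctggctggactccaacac

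Promoters are the 250 bases before the RefSeq transcription start in build GRCm38.p6, and 8 of the 10 members were matched by symbol. Capitals mark a match to 1 of 6 motifs: GAANNTTC or TTCNNGAA (paired units bound by heat shock factors), TGACGTCA (bound by CREB and ATF proteins), TGANTCA (bound by AP-1, the dimer that Fos and Jun proteins form), GCGGGGGCG (bound by EGR proteins), the CArG box (bound by SRF) and TATAAA. All were searched on both strands except TATAAA, which was read along the gene. A match is a description of letters, not of binding.
Hspa1a (chr17:34972157-34972406, minus strand): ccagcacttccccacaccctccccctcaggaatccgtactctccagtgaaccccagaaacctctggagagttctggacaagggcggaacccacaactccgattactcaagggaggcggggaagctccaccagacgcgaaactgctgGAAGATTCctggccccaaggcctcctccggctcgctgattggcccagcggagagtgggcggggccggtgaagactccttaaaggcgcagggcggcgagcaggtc
Hspa1b (chr17:34959239-34959488, minus strand): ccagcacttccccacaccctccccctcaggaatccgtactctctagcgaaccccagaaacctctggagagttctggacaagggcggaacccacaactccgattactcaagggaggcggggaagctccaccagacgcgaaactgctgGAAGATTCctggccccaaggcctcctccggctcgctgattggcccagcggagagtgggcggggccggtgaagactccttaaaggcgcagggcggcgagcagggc
Fos (chr12:85473640-85473889, plus strand): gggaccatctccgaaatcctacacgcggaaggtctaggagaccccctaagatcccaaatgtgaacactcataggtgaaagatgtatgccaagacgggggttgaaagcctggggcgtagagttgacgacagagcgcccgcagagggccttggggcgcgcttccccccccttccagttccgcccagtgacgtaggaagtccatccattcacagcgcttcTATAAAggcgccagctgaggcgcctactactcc
Fosb (chr7:19310046-19310295, minus strand): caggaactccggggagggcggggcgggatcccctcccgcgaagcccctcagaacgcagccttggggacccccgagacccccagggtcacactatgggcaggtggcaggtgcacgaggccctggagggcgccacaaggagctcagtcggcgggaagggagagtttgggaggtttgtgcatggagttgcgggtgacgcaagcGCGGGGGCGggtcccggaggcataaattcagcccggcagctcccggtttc

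The promoters of Hspa1a and Hspa1b had the same letter at 247 of 250 positions. Each held 1 match to GAANNTTC, starting at -104 relative to the start site, and so did Jun, at -128. This motif was in 12.8% of 32851 promoters of that length. Dusp1 held 1 match to TGACGTCA (1.55% of promoters), at -143. Fosb held 1 match to GCGGGGGCG (2.57% of promoters), at -50, and Fos 1 match to TATAAA (7.59% of promoters), at -33. The windows of Atf3 and Junb held no match to the 6 motifs, and no matched member held a TGANTCA match (6.75% of promoters) or a CArG box (1.47% of promoters) in this window.

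All 9 probes were well above background on 8 of 8 arrays except Hspa1a, which was so on 7 and not on the caudal E10.5 array. Each varied over the arrays by between 1.16 (Dusp1) and 4.61 (Fosb) on the log2 scale, while the median range of the 45585 probes tested was 1.65.

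Fos encodes a leucine zipper protein that pairs with Jun proteins to form AP-1. Its probe (mm9, chr12:86817900-86817959, plus strand) had a level of -0.03 at E8.75, 0.63 and 1.02 in the rostral and caudal E9.5 duct, 3.08 and -0.15 in the rostral and caudal E10.5 duct, 3.42 in the E11.5 bud, and 0.23 and 1.48 in rostral and caudal Wt1-GFP cells. The bud and rostral E10.5 arrays were high and differed from each other by 0.35, while caudal E10.5 was the lowest of all 8. Fos was spotted 10 times, and the 9 or 10 spots used on an array had an SD of 0.04 to 0.11, which measures spotting and scanning only.

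Fosb, a close relative of Fos, had the widest range. Its probe (mm9, chr7:19888168-19888227, minus strand) was at 1.19 at E8.75, 2.80 and 3.30 in the rostral and caudal E9.5 duct, 5.20 and 2.73 at rostral and caudal E10.5, 5.80 at E11.5, and 1.40 and 1.94 in rostral and caudal Wt1-GFP cells. The same pair of arrays as for Fos, E11.5 and rostral E10.5, stood on top. The bottom 3 were E8.75 and both Wt1-GFP arrays.

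Jun encodes the main partner of Fos in AP-1. Its probe (mm9, chr4:94716928-94716987, minus strand) was at -1.19 at E8.75, 1.13 and 1.31 in the rostral and caudal E9.5 duct, 2.49 and 1.89 at rostral and caudal E10.5, 1.97 at E11.5, and 0.72 and 1.16 in rostral and caudal Wt1-GFP cells. E8.75 stood apart at the bottom, and the 3 arrays from E10.5 on were the highest.

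Junb, a Jun relative that can dampen Jun activity, had a dim probe (mm9, chr8:87501881-87501940, minus strand). It was at -3.79 at E8.75, -3.30 and -3.15 in the rostral and caudal E9.5 duct, -1.09 and -3.21 at rostral and caudal E10.5, -2.69 at E11.5, and -3.37 and -2.73 in rostral and caudal Wt1-GFP cells. Rostral E10.5 was above the next array, E11.5, by 1.60, and the other 7 arrays lay between -3.79 and -2.69.

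Egr1 encodes a zinc finger factor that is a common readout of ERK activity. Its level was 4.86 at E8.75, 4.89 and 6.11 in the rostral and caudal E9.5 duct, 6.49 and 4.54 at rostral and caudal E10.5, 6.53 at E11.5, and 3.45 and 4.78 in rostral and caudal Wt1-GFP cells. E11.5, rostral E10.5 and caudal E9.5 were the highest 3, in this order, and rostral Wt1-GFP was the lowest.

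Ier2, a small nuclear protein gene of the same early class, had a probe at mm9, chr8:87186214-87186273, minus strand. It was at -2.22 at E8.75, -0.82 and -1.02 in the rostral and caudal E9.5 duct, 0.35 and -0.79 at rostral and caudal E10.5, -0.75 at E11.5, and -1.81 and -1.05 in rostral and caudal Wt1-GFP cells. Rostral E10.5 was again the highest and E8.75 the lowest.

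Dusp1 encodes a phosphatase that switches off MAP kinases and is itself induced by them. Its probe, on mm9 chromosome 17, minus strand, was the flattest of the members, at 3.18 at E8.75, 2.40 and 2.18 in the rostral and caudal E9.5 duct, 2.80 and 2.03 at rostral and caudal E10.5, 3.19 at E11.5, and 2.52 and 2.45 in rostral and caudal Wt1-GFP cells. Its range of 1.16 was below the median range of all probes tested.

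Atf3, a factor of the stress response that is induced by ATF4 and by AP-1 signals, ran a different course. Its probe (mm9, chr1:192994547-192994606, minus strand) was at 0.60 at E8.75, -2.65 and -2.50 in the rostral and caudal E9.5 duct, -2.96 and -3.24 at rostral and caudal E10.5, -1.52 at E11.5, and -0.45 and -1.41 in rostral and caudal Wt1-GFP cells. E8.75 was the highest, followed by both Wt1-GFP arrays, and the 4 arrays of the E9.5 and E10.5 duct were the lowest.

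Hspa1a and Hspa1b encode the inducible HSP70 chaperone. Their shared probe was at -2.40 at E8.75, -2.74 and -4.07 in the rostral and caudal E9.5 duct, -3.69 and -5.10 at rostral and caudal E10.5, -3.42 at E11.5, and -1.86 and -2.20 in rostral and caudal Wt1-GFP cells. The value of caudal E10.5 was not well above background, and the dimmest probe that was so on that array stood at -3.89. Both Wt1-GFP arrays were the highest, followed by E8.75, and the same 3 arrays stood on top for Atf3.

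With 1 array per part, the only spread to hold these orders against is the residual SD of the model, set by how unlike the rostral-caudal differences of the divided groups were. It was 1.68 for Fos, 1.32 for Egr1, 1.22 for Fosb and 1.04 for Junb, and between 0.26 and 0.68 for the others. Of 63 pairs of neighbours in the order of a probe's levels, 15 differed by more than that SD. For Fos and Egr1 these were 0 of 7 pairs. For Fosb it was the step from caudal E9.5 to rostral E10.5 (1.90), and for Junb that from E11.5 to rostral E10.5. The widest gap of Jun was from E8.75 to rostral Wt1-GFP (1.91), and that of Atf3 from rostral Wt1-GFP to E8.75 (1.05).

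**Figure D2:**
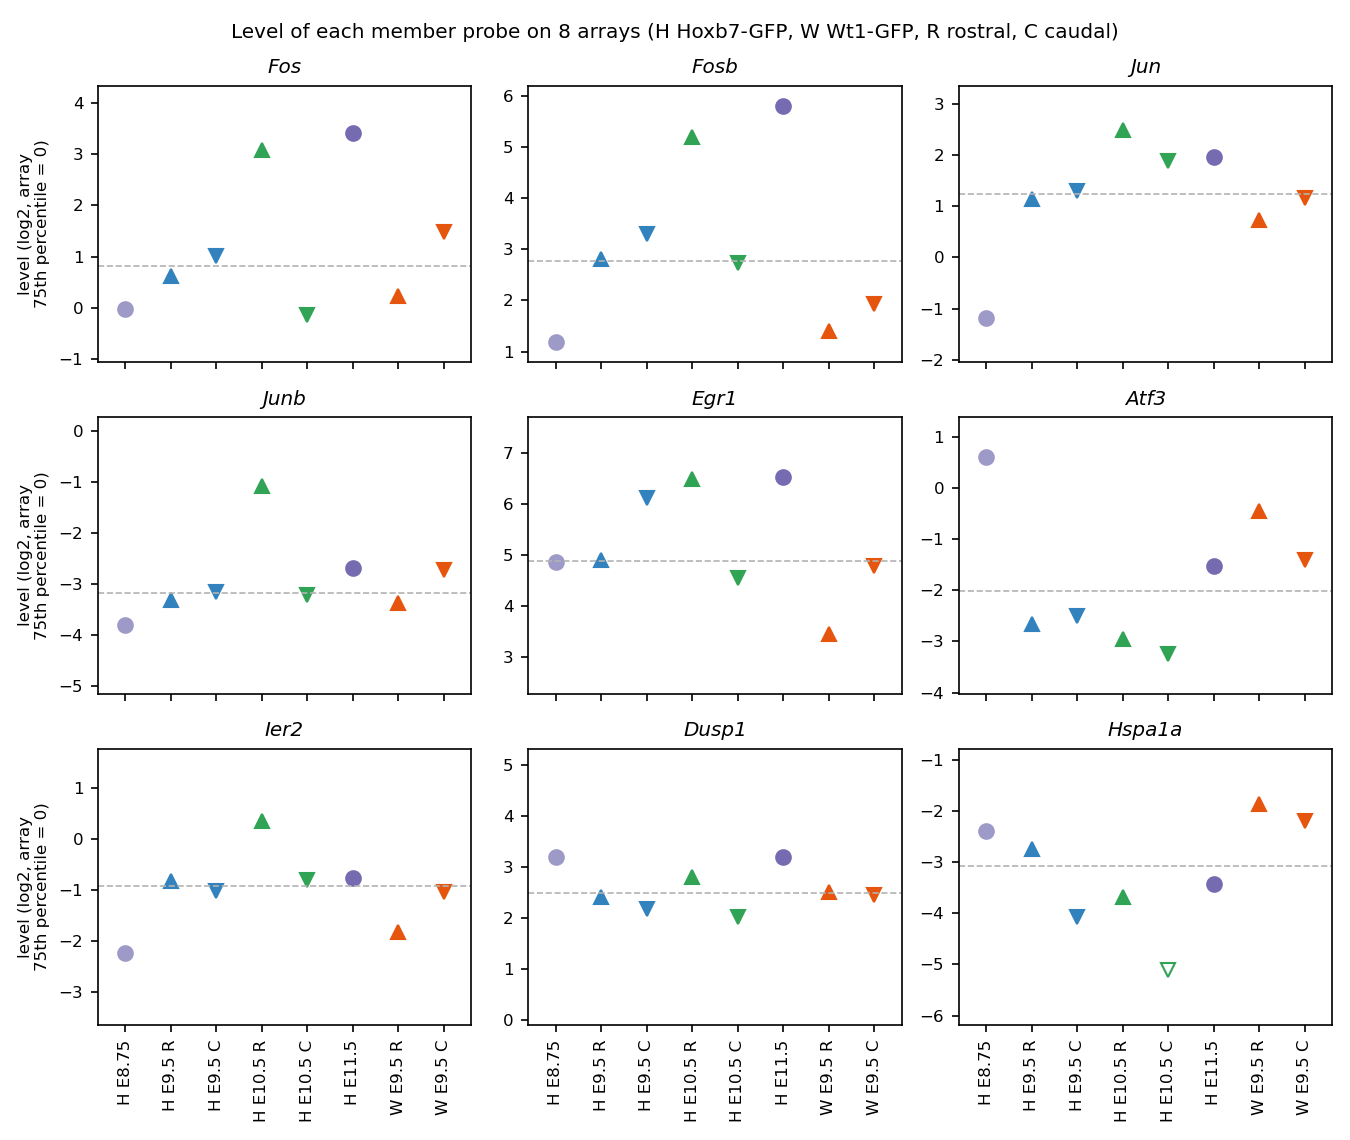
Level of each of the 9 member probes (log2, array 75th percentile at 0) on each of 8 arrays; every panel spans the same number of log2 units, the dashed line is the median over the arrays, and an open symbol is not well above background. Fos and Fosb are highest at E11.5 (3.42 and 5.80) and rostral E10.5, Atf3 is highest at E8.75 (0.60), and Hspa1a is highest in Wt1-GFP cells (-1.86 and -2.20).

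The members fell into 2 patterns over the 8 arrays, described here by Pearson r with no test, since the points share stages, slide rows and sorts. Fos and Fosb correlated at r = 0.88 (n = 8), Fosb and Egr1 at r = 0.86, Jun and Ier2 at r = 0.90 and Junb and Ier2 at r = 0.87. All 15 pairs among Fos, Fosb, Jun, Junb, Egr1 and Ier2 were between 0.48 and 0.90. Atf3 correlated at r = -0.84 with Jun and with Ier2, and at r = 0.75 with Hspa1a. Dusp1 lay between, with r = 0.61 to Atf3 and r = 0.48 to Fos.

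**Figure D3:**
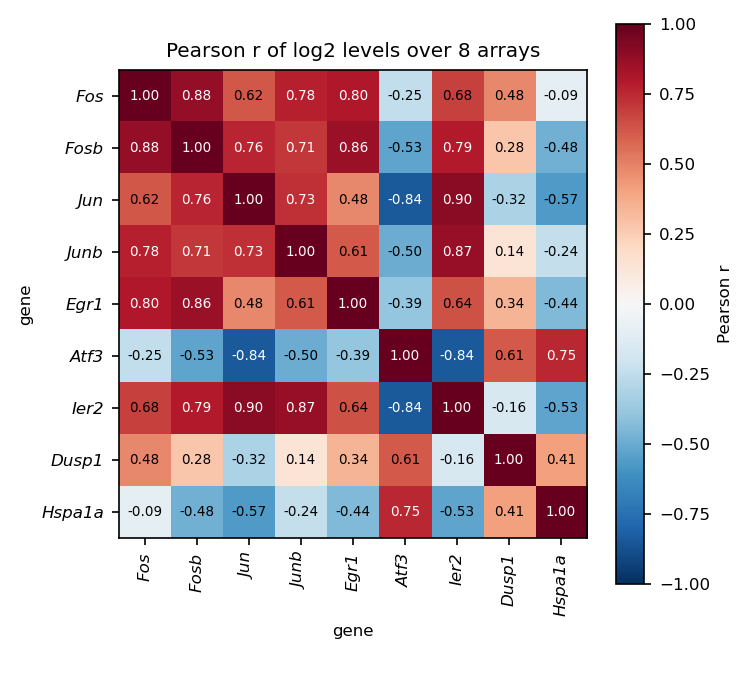
Pearson r between the log2 levels of each pair of member probes over 8 arrays; red is positive and blue negative. Fos, Fosb, Jun, Junb, Egr1 and Ier2 form a positive block (0.48 to 0.90), and Atf3 and Hspa1a are negative to each of them and positive to each other (0.75).

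Among 10843 other named genes measured on all 8 arrays with a range of at least 1, those whose pattern was most like Fos were Noxo1 (r = 0.975, n = 8), Camta2 (0.950), 9330151L19Rik (0.924), Rfx5 (0.917) and Bivm (0.905). Noxo1, an organiser of an NADPH oxidase, ranged from -3.05 at caudal E10.5 to -0.81 at E11.5, the same lowest and highest arrays as Fos. The genes most like Hspa1a were Zfp516 (r = 0.974), Rgs5 (0.961), Nfil3 (0.956), Pbx3 (0.949) and Mical1 (0.942). Rgs5, a regulator of G protein signalling known from pericytes, ranged from -2.20 at caudal E10.5 to 2.79 in rostral Wt1-GFP cells.

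Where the duct was divided, the members differed most between the rostral and caudal parts at E10.5. There 9 of 9 probes were higher in the rostral part, with a median of 1.41 against -0.06 over all probes tested. A difference of at least 1 was reached by 6 members higher, where 9.81% of all probes were that much higher, and by 0 members lower, where 10.1% of probes were. Fos was higher by 3.23 (9.37-fold), Fosb by 2.47 (5.53-fold), Junb by 2.12 (4.36-fold), Egr1 by 1.95 (3.85-fold) and Ier2 by 1.15 (2.21-fold). The difference of Hspa1a was 1.41, but its caudal level was not well above background. Set against the dimmest probe that was so on that array (-3.89), the rostral level was 1.15-fold. That is another probe, so 1.15-fold is a rough guide and no strict limit. Of all probes tested, 0.443% were as much higher in the rostral part as Fos. These are single arrays with no replicate check, and the value of 9 of 9 higher was the same with quantile normalization and with normexp background correction. With normexp, Ier2 (0.85) and Hspa1a (0.19) were under 1, and Junb was at 1.10.

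At E9.5 the duct showed no such shift. In it 3 members were higher in the rostral part and 6 lower, with a median of -0.16 against 0.07 over all probes. Of these, 1 member was higher by at least 1 (Hspa1a, 1.32, where 12.4% of probes were) and 1 lower (Egr1, -1.22, where 7.77% of probes were). In the Wt1-GFP cells 3 were higher and 6 lower in the rostral part, with a median of -0.54 against 0.03 over all probes. There 0 members were higher by at least 1 (12.1% of probes) and 2 were lower, Egr1 (-1.33) and Fos (-1.25), where 7.26% of probes were. The sign was that of a lower rostral level in both E9.5 pairs for Fos, Fosb, Jun, Junb and Egr1, although with normexp the value of Junb in the E9.5 duct turned to 0.05.

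**Figure D4:**
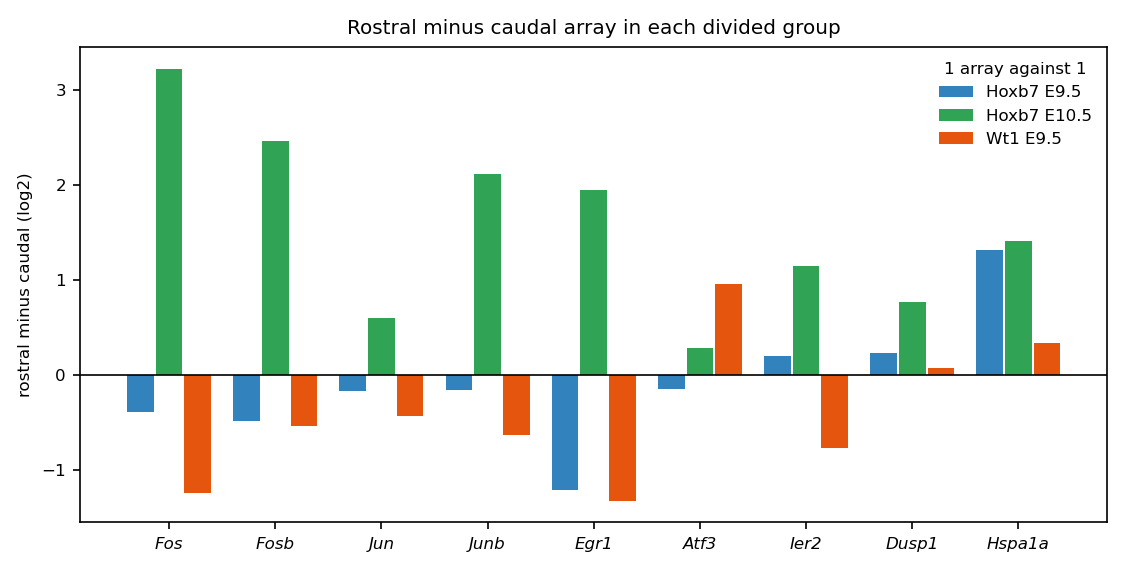
Rostral minus caudal level (log2) of each member in the 3 divided groups, 1 array against 1, bars from 0. In the E10.5 duct all 9 bars are above 0 (Fos 3.23), while in both E9.5 groups Fos, Fosb, Jun, Junb and Egr1 are below 0.

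The difference between these pairs was tested by an interaction term, added after the values were seen, which set the E10.5 pair against the mean of both E9.5 pairs with 1 residual degree of freedom. The members' median of this difference was 1.43, against -0.09 over all probes. It was at least 1 for 5 members higher (10.4% of probes) and 0 lower (16.7% of probes): Fos by 4.04 (SE 0.63), Egr1 by 3.22 (SE 0.45), Fosb by 2.99 (SE 0.45), Junb by 2.52 (SE 0.51) and Ier2 by 1.43 (SE 0.67). No member passed adjusted p 0.05 in limma. The adjusted p was 0.76 for Fos, Fosb, Junb and Egr1 and 0.84 for Ier2, and 0 of 45585 probes passed (0%), with 2882 at unadjusted p under 0.05, among them 4 members. The E10.5 pair lies in different slide rows and the E9.5 pairs do not, so this term cannot be told apart from the slide row.

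Other immediate early genes of a list of 40, of which 39 were measured, were also mostly higher in the rostral part at E10.5. In that pair 31 were higher in the rostral part and 8 lower (9 and 1 by at least 1, median 0.59), against 12 higher and 27 lower in the E9.5 duct (median -0.31) and 12 and 27 in the Wt1-GFP cells (median -0.15). In the interaction 34 were higher and 5 lower, 0 passed, and the largest were Egr2 (5.04), a relative of Egr1, Arc (3.44), a synaptic gene of the same class, Btg2 (2.77), an antiproliferative gene, and Nr4a1 (2.52), an orphan nuclear receptor. Egr2 was at 1.68 and -1.37 at rostral and caudal E10.5 and at -1.30 and 0.75 in the rostral and caudal E9.5 duct.

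Lists of neighbouring pathways had their medians near that of all probes in this pair. Of 31 other heat shock and chaperone genes, all measured, 10 were higher and 21 lower at rostral E10.5 (median -0.17). Of 20 genes of the ERK pathway and its feedback, 9 were higher and 11 lower (median -0.08). By at least 1 at rostral E10.5, Etv1 (-2.77), Etv4 (-2.18) and Spry2 (-1.28) of this list were lower and Il17rd (1.05) was higher. Of 14 measured integrated stress response genes 7 were higher and 7 lower (median -0.02). In the interaction these 3 lists had 18 higher and 13 lower, 14 and 6, and 7 and 7, with 0 passed. By at least 1 they held Hspa4l (-1.74, well above background on 1 array) and Hspa1l (1.36) among chaperones, and Etv1 (-1.80), Il17rd (1.71) and Spry2 (-1.46) in the ERK list.

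**Figure D5:**
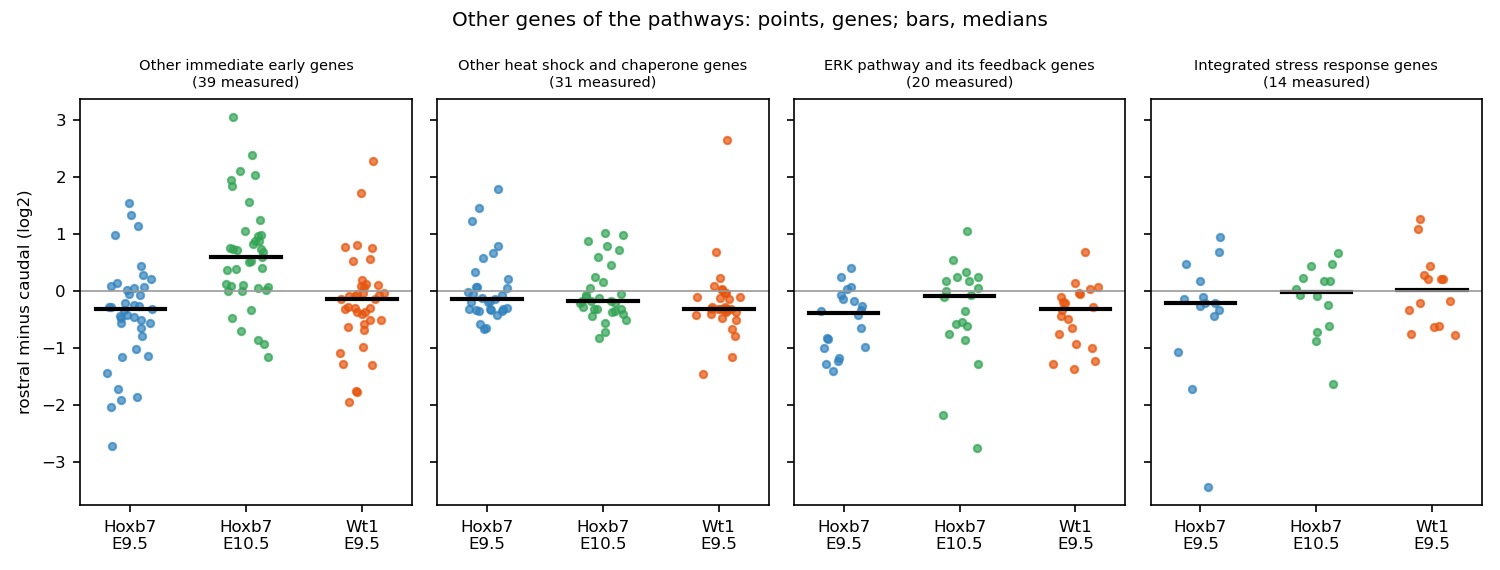
Rostral minus caudal level (log2) of the other genes of 4 pathway lists in the 3 divided groups; each point is a gene, placed at random across its column, and each bar is the median. The immediate early list has its median at 0.59 in the E10.5 duct and below 0 in both E9.5 groups, and the medians of the other lists lie between -0.40 and 0.01.

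Blood markers and markers of Wt1-positive mesoderm and stroma also differed between the parts of the E10.5 duct. In that pair 4 of 6 measured blood genes were higher in the rostral part and 2 lower, with a median of 3.31. Their summed signal, in units of the array's 75th percentile, was 5.69 at rostral and 0.54 at caudal E10.5, and 7.10 at E11.5. It was 13.4 and 29.3 in the rostral and caudal E9.5 duct. The embryonic globin Hbb-y was at 1.96 and -3.58 at rostral and caudal E10.5. Only 3 of the 6 blood genes were well above background at caudal E10.5. There Hba-x (-5.99), Klf1 (-5.62) and Hbb-bh1 (-4.83) were under the dimmest probe that was so (-3.89). The size of blood medians that use this array is therefore uncertain. Of 7 markers of Wt1-positive mesoderm and stroma, 5 were higher in the rostral part and 2 lower (4 and 1 by at least 1), with a median of 1.58. Their summed signal was 1.61 at rostral and 0.66 at caudal E10.5, and the level of Wt1 itself was -0.93 against -5.07. The caudal value of Wt1 was under the dimmest probe well above background on that array (-3.89). Of these 7 markers, 6 were higher in the rostral part of the E9.5 duct too (median 1.71). Of markers of neurons and neural crest, 5 were higher in that part of the E9.5 duct and 1 lower (median 1.85). At E10.5 they were 3 and 3 (median 0.05). The part of these lists in the result was not tested.

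Over the 3 pairs together, the position term of the model gave 7 members higher and 2 lower in the rostral part, with a median of 0.36 against 0.01 over all probes. This direction rested on the E10.5 pair. Without either E10.5 array, or with a term for slide row, 3 members were higher and 6 lower (median -0.30). Without either array of the E9.5 duct 9 were higher and 0 lower (median 0.62), and so they were without either Wt1-GFP array (median 0.67). Of the members, 1 was higher by at least 1, Hspa1a (1.02, SE 0.31, adjusted p = 0.76 in limma), where 6.03% of probes were, and 0 were lower (3.24% of probes). This value uses the caudal E10.5 level that was not well above background, and with normexp it was 0.29. In this comparison 0 of 45585 probes passed (0%), and 2917 had an unadjusted p under 0.05. The measured values of Hspa1a were higher in the rostral part in 3 of 3 pairs. At E10.5 the rostral level was 0.20 on the log2 scale above the dimmest probe well above background on the caudal array. Of the lists, other immediate early genes had 18 higher and 21 lower, and chaperones 11 and 20 with Hspb8 at 1.40. ERK genes were 4 and 16, with Etv4 at -1.62, Etv1 at -1.57 and Etv5 at -1.03. Stress response genes were 6 and 8, with Slc7a11 at -1.38 (well above background on 2 arrays) and Psat1 at -1.15. None of them passed.

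The arrays of the E9.5 duct serve in this comparison and in both stage steps that follow, so these share samples. Duct and Wt1-GFP cells of E9.5 address how duct precursors differ from neighbouring mesoderm. Of the members 4 were higher and 5 lower in the duct, with a median of -0.03 against -0.05 over all probes, and the median ran from -0.41 without the rostral Wt1-GFP array (2 higher, 7 lower) to 0.64 without the caudal one (7 higher, 2 lower). By at least 1, 2 were higher (10.1% of probes), Egr1 by 1.39 (2.61-fold, SE 0.99, adjusted p = 0.59) and Fosb by 1.38 (2.61-fold, SE 0.92, adjusted p = 0.57). Another 2 were lower (7.77% of probes), Atf3 by -1.65 (3.13-fold, SE 0.36, adjusted p = 0.33) and Hspa1a by -1.37 (2.59-fold, SE 0.38, adjusted p = 0.38). Without the rostral Wt1-GFP array Egr1 was at 0.54, Fosb at 0.62 and Hspa1a at -1.89, and without the caudal one they were at 2.24, 2.15 and -0.86. Without the caudal E9.5 duct array Egr1 was at 0.63 and Fosb at 0.65, and without the rostral one at 2.15 and 2.11. With normexp Hspa1a was at -0.64 and Atf3 at -0.99. The p-values are from limma, in which 0 of 45585 probes passed (0%), while 5399 had an unadjusted p under 0.05, among them Atf3 and Hspa1a.

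The arrays of the groups, 2 against 2, did not overlap for 3 members higher in the duct, Fosb, Egr1 and Ier2 (19.7% of probes), and for 3 lower, Atf3, Dusp1 and Hspa1a (26.8% of probes). The 2 reporters were in different slide rows at E9.5. A fit with a term for slide row, at 1 residual degree of freedom, put 9 of 9 members lower in the duct (median -1.60). Fosb and Egr1 were then at -1.60 and -1.83. The row term was set by the E10.5 pair alone, the only group with arrays in both slide rows. The shift thus carries over the rostral-caudal difference of that pair and is no separate check of the reporter comparison. No slide row holds both reporters at E9.5, so no value within a row can be given. Of 13 endothelial markers 10 were higher in the duct and 3 lower (median 1.55), with a summed signal of 9.15 and 12.5 in the rostral and caudal duct and 7.79 and 7.28 in Wt1-GFP cells. Their part in the result was not tested.

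Other chaperones had the direction of Hspa1a in this comparison, with 6 higher and 25 lower in the duct (median -0.44). The largest were the small heat shock genes Hspb1 (-1.65, well above background on 6 arrays) and Hspb8 (-1.39) and the HSP40 gene Dnajb4 (-1.06). Of other immediate early genes 22 were higher and 17 lower, led by Egr2 (2.09), Socs3 (-1.96), a cytokine feedback gene, Zfp36 (1.84), an mRNA decay factor, and Ctgf (-1.76), a target of YAP. Of ERK genes 9 were higher and 11 lower, with Etv4 (1.62), an ETS factor downstream of Ret, and Spry1 (1.32), a feedback inhibitor. Stress response genes were 6 and 8, with Slc7a11 (1.41, well above background on 2 arrays), Herpud1 (-1.23), Trib3 (1.01) and Ddit4 (-1.0). No gene of these lists passed.

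From E8.75 to the E9.5 duct Jun and Fosb were higher and Atf3 was lower, with none of them passing. Fos (0.85, SE 1.53) and Junb (0.57, SE 0.97) were within their SE. Of their relatives outside the members, Fosl1 was at -0.92, Fosl2 at -0.03 and Jund at 0.05. Of the members 6 were higher and 3 lower at E9.5 (median 0.65 against -0.02 over all probes). By at least 1, 3 were higher (14.1% of probes), Jun by 2.41 (5.31-fold, SE 0.43, adjusted p = 0.25), Fosb by 1.87 (SE 1.13, adjusted p = 0.50) and Ier2 by 1.30 (SE 0.66, adjusted p = 0.44). Lower by at least 1 were 2 (11.8% of probes), Atf3 by -3.18 (9.04-fold, SE 0.45, adjusted p = 0.23) and Hspa1a by -1.0 (SE 0.46, adjusted p = 0.41). In limma 0 of 45585 probes passed (0%), with 6724 at unadjusted p under 0.05, among them Jun and Atf3.

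Relative to E8.75, Jun was at 2.32 and 2.50 and Atf3 at -3.25 and -3.10 in the rostral and caudal E9.5 duct. Egr1 was at 0.04 and 1.25. All 3 arrays lay in the first slide row. The members' median was 1.30 and Fosb was at 2.59 without the rostral E9.5 array, against 0.12 and 1.14 without the caudal one. With normexp Ier2 was at 0.75 and Hspa1a at -0.36. The lone E8.75 array was assumed to vary like the other groups. All 13 endothelial markers were lower at E9.5 than at E8.75 (median -2.90). Their summed signal was 66.3 at E8.75 against 9.15 and 12.5 in the rostral and caudal E9.5 duct. Of markers of neurons and neural crest 6 were higher at E9.5 and 0 lower (median 1.31). Their part in the result was not tested.

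The stress and chaperone lists were mostly lower at E9.5 than at E8.75. Of 14 stress response genes 2 were higher and 12 lower (median -0.86). They were led by Ddit4 (-2.54), an inhibitor of mTORC1, and Herpud1 (-2.23), a gene of endoplasmic reticulum stress. Next were Slc7a11 (-1.59, well above background on 2 arrays), a cystine transporter, and Psat1 (-1.51), of serine synthesis. Of chaperones 5 were higher and 26 lower (median -0.53), with Hspb1 (2.65), Hspa1l (2.17), Dnajb4 (-1.29) and Hspe1 (-1.10). ERK genes were 3 and 17 (median -0.51), with Elk3 (-2.03), Rasa1 (-1.51), Spry4 (-1.46, well above background on 4 arrays) and Spred1 (-1.26). Other immediate early genes were 17 and 22, with Egr2 (4.67), Dusp5 (3.18), Klf2 (-2.73), a gene of endothelium under flow, and Csrnp1 (2.57). At E8.75 Hspb1 (-6.86), Dusp5 (-6.74) and Csrnp1 (-5.82) were under the dimmest probe well above background on that array (-5.26). No gene of the lists passed.

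From E9.5 to E10.5 Fos, Fosb and Egr1 were higher in the rostral part of the duct and lower in the caudal part, while other members moved alike in both. Within the rostral part, in the first slide row, Fos was higher at E10.5 by 2.45, Fosb by 2.39, Junb by 2.22, Egr1 by 1.60, Jun by 1.36 and Ier2 by 1.18. Within the caudal part, across slide rows, Egr1 was at -1.57, Fos at -1.17, Fosb at -0.57 and Junb at -0.06 relative to E9.5, and Jun and Ier2 at 0.58 and 0.23. There 0 members were higher by at least 1 (11.8% of probes) and 3 were lower (9.18% of probes). In the rostral and caudal part Atf3 was at -0.31 and -0.73, Dusp1 at 0.40 and -0.15, and Hspa1a at -0.95 and -1.03. The caudal E10.5 level of Hspa1a was not well above background. These steps hold the same 4 arrays as the difference between the rostral and caudal pairs of the duct.

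Over both parts the model gave 7 members higher and 2 lower at E10.5 (median 0.64 against 0 over all probes). The only one higher by at least 1 was Junb, by 1.08 (SE 0.80, adjusted p = 0.83 in limma), where 7.41% of probes were, and 0 were lower (7.03% of probes). Without the rostral E10.5 array Junb was at -0.19 and the members' median at -0.46, and without the caudal one they were at 2.34 and 1.42. Without the rostral E9.5 array the median was 0.03, and with normexp Junb was at 0.58. The arrays did not overlap for 2 members higher at E10.5, Jun and Ier2 (18% of probes), and for 1 lower, Atf3 (16.9% of probes). In limma 0 of 45585 probes passed (0%), with 3343 at unadjusted p under 0.05 and no member among them. Some marker lists of other cells were mostly lower at E10.5. Of markers of Wt1-positive mesoderm and stroma 7 of 7 were lower by at least 1 (median -1.95). Of endothelial markers 13 of 13 were lower (6 by at least 1, median -0.94), and of blood markers 2 were higher and 4 lower (median -2.41). Markers of neurons and neural crest were 1 higher and 5 lower (median -0.51), and macrophage markers 5 higher and 2 lower (median 0.08). Their part in the result was not tested.

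In the lists this step showed Ier3 (2.74), Fosl2 (2.38), Sgk1 (-2.21) and Csrnp1 (-1.82) among other immediate early genes (23 higher, 16 lower). Csrnp1 was well above background on 6 arrays. Chaperones were 7 and 24, with Hspb1 (1.99, well above background on 6 arrays) and Hspb8 (-1.44). ERK genes were 5 and 15, with the ETS factor genes Etv1 (-2.72) and Etv4 (-1.01) and the inhibitor Spry4 (-1.37, well above background on 4 arrays). Stress response genes were 6 and 8, with Slc7a11 (-1.71, well above background on 2 arrays) and Ddit4 (1.62), and none passed.

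From the E10.5 duct to the E11.5 bud, 6 members were higher and 3 lower (median 0.97 against -0.04 over all probes). By at least 1 in either direction, 24.5% of probes differed and 4 members did, all 4 of them higher: Fos by 1.96 (3.89-fold, SE 1.53, adjusted p = 0.64), Fosb by 1.84 (3.57-fold, SE 1.13, adjusted p = 0.56), Atf3 by 1.58 (2.99-fold, SE 0.45, adjusted p = 0.36) and Egr1 by 1.02 (SE 1.21, adjusted p = 0.76). In limma 0 of 45585 probes passed (0%), with 5565 at unadjusted p under 0.05, among them Atf3.

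The values of Fos, Fosb and Egr1 depended on which part of the E10.5 duct was set against the bud. Against caudal E10.5, in the same slide row, all 9 members were higher in the bud, Fos by 3.57, Fosb by 3.07, Egr1 by 1.99 and Atf3 by 1.72. Jun (0.07) and Ier2 (0.04) differed little, and Hspa1a (1.68) rested on a caudal level that was not well above background. The share of all probes higher in the bud was not counted for this single pair of arrays. Against rostral E10.5, in the other slide row, Fos was at 0.35, Fosb at 0.60, Egr1 at 0.04, Junb at -1.60 and Ier2 at -1.11, and Atf3 was at 1.44. Atf3 was thus the only member above both E10.5 arrays by at least 1, while Junb, Ier2 and Jun were below the rostral one. Without the caudal E10.5 array the fitted values of Fos, Egr1 and Fosb were -0.06, -0.59 and 0.34 and the members' median was -0.06. Without the rostral one they were 3.98, 2.63 and 3.33 and the median was 1.26. With normexp Atf3 was at 0.64. Of blood markers 5 were higher in the bud and 1 lower (median 1.40), and of endothelial markers 8 and 5 (median 0.69). Their part in the result was not tested.

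ERK target genes and other immediate early genes were mostly higher in the bud. Of 20 ERK genes 15 were higher and 5 lower (median 0.69), led by Etv1 (2.62), Etv4 (2.24), Spry4 (2.07, well above background on 4 arrays) and Spry1 (1.99). Of 39 other immediate early genes 32 were higher and 7 lower (median 0.66). They were led by Nr4a1 (2.37), Csrnp1 (2.32, well above background on 6 arrays), Sgk1 (2.14) and Btg2 (1.77). Chaperones were 21 and 10, with Hspa4l (2.31, well above background on 1 array), Hspa1l (1.72), Hspb1 (1.45) and Hspa13 (1.03), and stress response genes 9 and 5, with Trib3 (1.41). None of them passed adjusted p 0.05 in limma.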

How the data were processed

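The 8 samples were 1-colour arrays, 1 per sample. Per the labels' protocols, RNA (10 ng a sample) went through NuGEN Pico amplification and Cy3 labelling. Per the file headers, Agilent Feature Extraction 10.7.3.1 made each intensity by subtracting background, and flagged spots. The deposited value file holds log2 values; set against the scanner values, they were log2 signals over the array's 75th percentile, centred on each probe's median (largest absolute probe median 0.005, column medians -0.07 to 0.08), and served as an alternative.

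Outlier and control spots were left out, and repeated spots averaged. The 75th percentile signal was 232.3 to 305.8 and the local background 25 to 31, and precision is limited by how many arrays there are. Probes well above background on at least 1 array (45585 of 55663) were fitted with limma 3.58.1 (R 4.3.3, with version 1.17.8 of data.table) on all 8 arrays, with 5 group terms and a position term (0.5 rostral, -0.5 caudal), leaving 2 residual degrees of freedom. P-values were adjusted by Benjamini-Hochberg over all probes, threshold 0.05. Differences of at least 1 were named, and of each pathway list at most 4 per comparison, largest first. The genes and lists were chosen with earlier results of these data known. Gene names are those of the array design.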

Additional observations from a re-analysis of the deposited data

Results flagged for a closer look

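Rostral minus caudal was compared between each 2 of the 3 divided groups, the E9.5 duct, the E10.5 duct and the E9.5 Wt1-GFP cells, each 1 array against 1. For 7 members it ran in opposite directions in at least 2 of them. In this order it was -0.39, 3.23 and -1.25 for Fos, and -0.49, 2.47 and -0.54 for Fosb. It was -0.17, 0.60 and -0.43 for Jun, and -0.16, 2.12 and -0.64 for Junb. For Egr1 it was -1.22, 1.95 and -1.33. These 5 genes had the E10.5 duct on one side and both E9.5 groups on the other. Atf3, at -0.15, 0.28 and 0.96, was below 0 in the E9.5 duct alone, and Ier2, at 0.20, 1.15 and -0.77, in the Wt1-GFP cells alone. With normexp the E9.5 duct values of Junb and Atf3 turned to 0.05 and 0. The share of all probes with opposite directions in at least 2 groups was not counted, so the count of 7 members is a description only. The difference between 2 single pairs was not tested. The E10.5 pair set against the mean of both E9.5 pairs did not pass adjusted p 0.05 in limma for any of the 7 genes.

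Hoxb7-GFP minus Wt1-GFP at E9.5 ran in opposite directions in the rostral and the caudal part for Fos (0.40 and -0.46) and for Junb (0.07 and -0.41). This difference was not tested. No group held 4 or more arrays, so no array could be examined as an outlier of its group.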

How the results depend on the processing

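Some alternatives leave a fitted difference as it is: the intensity trend, both probe filters and leaving out an array outside the comparison. The deposited values are the same signals centred by probe. Of the members' differences of at least 1 under all alternatives run, 252 kept their direction and 5 reversed. The 252 include those that could not change, so the count is no measure of stability. These differences were also held against the threshold. None passed adjusted p 0.05 in any setting, and 22 of the 252 and 3 of the 5 were under 1 in size. With slide row as a block, the reporter difference of Fosb and Egr1 turned to -1.60 and -1.83 and the members' median to -1.60. The E9.5 to E10.5 median was then 1.42. The row term was set by the E10.5 pair alone, so these values carry over that pair's difference and are no separate check. Leaving out 1 array, the median of E9.5 to E10.5 ran from -0.46 to 1.42 and that of E10.5 to E11.5 from -0.06 to 1.26. Junb ran from -0.19 (without rostral E10.5) to 2.34 for E9.5 to E10.5, and Fos from -0.06 (without caudal E10.5) to 3.98 and Egr1 from -0.59 (the same) to 2.63 for E10.5 to E11.5. The count of probes passing, 0 in each comparison, became 827 for the reporter and 1 for E8.75 to E9.5 with a prior variance that follows intensity, 227 and 114 with normexp, and 3 for the reporter without the position term. The lowest adjusted p of a member difference of at least 1 under these alternatives was 0.051, for Jun from E8.75 to E9.5 with the intensity trend. With normexp the median of the interaction was 0.96. The median of the position term turned from 0.36 to -0.30 with slide row as a block and without either E10.5 array. That of the reporter comparison ran from -0.41 to 0.64 on leaving out 1 Wt1-GFP array, and that of E8.75 to E9.5 from 0.12 to 1.30 on leaving out 1 E9.5 array. The cause of these changes was not tested. Each member had 1 probe, so the mean over several probes was not run. The interaction was not run with the slide row as a block, which it cannot be told apart from, nor without single arrays. The labels give no replicate numbers, so no replicate number served as a block. Rostral and caudal parts were compared within their group by the position term. Differences of dim probes such as Junb and Hspa1a are limited by their signal over background.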
